A study of Mus musculus with 36 samples.

Results

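The serpins are a superfamily of protease inhibitors, and the chromatin described here is that at the autosomal serpin genes of mouse liver. A serpin presents a reactive loop as bait, and a protease that cuts this loop is trapped in a covalent complex. The liver secretes many of them into the blood, among them alpha-1-antitrypsin (the Serpina1 genes), antichymotrypsin-like inhibitors (Serpina3), antithrombin (Serpinc1) and C1 inhibitor (Serping1), whereas the Serpinb proteins mostly act inside cells. H3K9me3, trimethylation of lysine 9 on histone H3, marks heterochromatin and is best known for silencing repeats and genes of other cell types. Members were the rows whose gene symbol, as assigned by the authors to the nearest transcript start, began with Serpin followed by a letter from a to i, on autosomes. They numbered 990 of 786789 rows over 6 comparisons, which is 469 distinct bins (peaks, or pieces of longer peaks, of about 0.5 kb or less) at 59 genes.

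The tables came from H3K9me3 ChIP-seq on liver tissue of male and female offspring, 3 or 8 weeks of age, from control dams or from dams with diet-induced maternal obesity (MO), with 4 libraries in each of 8 groups and 4 input libraries besides. Per the study's methods, all mice carried a floxed Reg3g allele (Reg3g-fl/+ or Reg3g-fl/fl, C57BL/6J background) and served as controls of that colony, with no Cre named. MO dams ate a Western-style diet, and control dams ate standard chow, from before mating through lactation. Mice of 3 weeks were taken before weaning, and those of 8 weeks were additional cohorts that had spent 5 weeks on chow. Age, weaning and cohort therefore change together in control as in MO offspring and cannot be told apart. In MO offspring the move from the dams' Western-style diet to chow comes on top. The deposited tables hold each comparison's log2 change, mean log2 CPM (read counts scaled to library size), p-value and FDR, and no value per library, so the spread between animals enters only through these tests. Errors given below as SE were worked back from the change and its p-value and are approximate. A bin was called at an FDR under 0.05 for age (controls, 8 against 3 weeks, positive when higher at 8 weeks) and at an unadjusted p under 0.001 for MO (positive when higher with MO).

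The genome holds 68 autosomal serpin genes in the annotation used here (28 Serpina, 29 Serpinb and 11 others), and 59 of them had a bin in at least 1 table while 42 had one in all 6. The 9 genes without any bin were Serpina3k, Serpinb1c, Serpinb9f, Serpinb9h, Serpind1 (heparin cofactor II) and the pseudogenes Serpina3d-ps, Serpina3e-ps, Serpina3l-ps and Serpinb1-ps1. The Serpina genes form 1 cluster at chr12:103616675-104414334. The Serpinb genes form 2 clusters, at chr1:106861175-107608978 with 12 genes and at chr13:32842092-34002794 with 17 genes. All coordinates are in mm10/GRCm38. The remaining serpins, among them those of coagulation, complement and collagen folding, are scattered.

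The sequences below are examples from bins with a called change and do not stand for all of them. The first set is a stretch of 206 bases that lies about 2 kb downstream of 3 alpha-1-antitrypsin genes of the Serpina cluster. It is contained in bins that were lower at 8 weeks, that of Serpina1c in females and those of Serpina1b and Serpina1d in males. Bases are from the GRCm38 reference, and capitals mark positions that differ from the Serpina1c stretch.
Serpina1c, chr12:103892713-103892918, + strand: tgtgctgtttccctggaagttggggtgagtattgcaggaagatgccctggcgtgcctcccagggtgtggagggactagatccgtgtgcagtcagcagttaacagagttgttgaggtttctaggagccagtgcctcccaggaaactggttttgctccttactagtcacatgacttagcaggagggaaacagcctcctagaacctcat
Serpina1b, chr12:103725909-103726114, + strand: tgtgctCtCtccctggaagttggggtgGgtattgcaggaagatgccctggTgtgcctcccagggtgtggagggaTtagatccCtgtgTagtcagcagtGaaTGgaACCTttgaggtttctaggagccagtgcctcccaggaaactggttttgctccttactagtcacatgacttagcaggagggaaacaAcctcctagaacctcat
Serpina1d, chr12:103761370-103761575, + strand: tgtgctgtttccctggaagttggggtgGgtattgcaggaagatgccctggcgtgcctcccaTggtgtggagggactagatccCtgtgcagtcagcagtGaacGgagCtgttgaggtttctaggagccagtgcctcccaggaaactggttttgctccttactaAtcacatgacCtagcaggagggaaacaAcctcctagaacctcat
The Serpina1b stretch has 15 mismatches to that of Serpina1c (92.7% identity), and the Serpina1d stretch has 9 (95.6% identity).

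The second set contrasts bins that were higher: the Serpinb6d bin of the male age comparison and the Serpinb3d bin of the MO comparison in 3-week males. Here capitals mark bases that the reference masks as repeats, and 300 bases from the middle of each bin are shown.
Serpinb6d, chr13:33734189-33734488, + strand: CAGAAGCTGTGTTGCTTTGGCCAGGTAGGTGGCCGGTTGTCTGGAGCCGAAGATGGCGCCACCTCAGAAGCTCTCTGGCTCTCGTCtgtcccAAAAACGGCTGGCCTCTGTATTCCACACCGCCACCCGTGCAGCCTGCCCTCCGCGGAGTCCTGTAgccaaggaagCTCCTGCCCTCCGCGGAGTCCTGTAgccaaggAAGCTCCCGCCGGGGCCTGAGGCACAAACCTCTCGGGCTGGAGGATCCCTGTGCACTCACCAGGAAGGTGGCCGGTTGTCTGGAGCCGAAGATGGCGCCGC
Serpinb3d, chr1:107071456-107071755, + strand: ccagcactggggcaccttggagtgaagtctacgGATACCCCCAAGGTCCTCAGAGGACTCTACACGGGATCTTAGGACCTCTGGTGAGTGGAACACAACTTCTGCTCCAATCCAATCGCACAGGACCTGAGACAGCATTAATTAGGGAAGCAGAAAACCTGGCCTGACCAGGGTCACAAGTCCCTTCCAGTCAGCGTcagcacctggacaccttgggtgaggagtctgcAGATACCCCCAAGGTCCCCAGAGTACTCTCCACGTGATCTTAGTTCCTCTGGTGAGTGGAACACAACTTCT
Repeat-masked bases made up 95.4% of the whole Serpinb6d bin and 75.8% of the Serpinb3d bin. Other called bins differed: the male age gain at Serpinb13 was 0.0% masked, and the male age loss at Serpinb3b was 49.5% masked. The last set is 1 bin without a nearby paralog, upstream of Serpinh1, that was lower at 8 weeks in males and is 3.99% masked.
Serpinh1, chr7:99359820-99360119, + strand: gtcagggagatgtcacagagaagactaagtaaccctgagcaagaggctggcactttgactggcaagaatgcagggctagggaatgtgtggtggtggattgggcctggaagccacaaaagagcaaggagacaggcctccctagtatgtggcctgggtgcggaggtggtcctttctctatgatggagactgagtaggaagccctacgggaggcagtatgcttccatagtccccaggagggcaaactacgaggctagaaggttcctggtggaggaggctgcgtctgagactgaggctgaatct

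The clusters differed in how much of them lay in H3K9me3 peaks. Of the Serpina cluster, 6.04% of the length was in peaks in the female age table and 7.49% in the male one, against 7.30% and 8.54% of all autosomes. In the Serpinb cluster on chromosome 1 these shares were 1.84% and 2.09%, and on chromosome 13 they were 2.30% and 2.75%. The Serpina cluster nonetheless held 62.7 and 76.5 bins per Mb in females and males, against 46.4 and 59.8 over the autosomes, as each peak is represented by 1 bin. Bins in the Serpina list were close to their genes, at a median of 1.66 kb in females and 1.57 kb in males, with 18 of 52 and 26 of 66 inside the gene. Serpinb bins lay at medians of 15.5 and 15.6 kb and only 7 of 58 and 12 of 75 were inside the gene, so that the Serpinb symbol mostly names the nearest gene of an intergenic peak. Over all serpins the farthest bin was 149 kb from its gene.

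The 3 lists also differed in sequence. At least 50% of the bases were repeat-masked in 25.0% of Serpina bins of the female age table, in 67.2% of Serpinb bins and in 21.8% of all autosomal bins. In the male table these shares were 16.7%, 60.0% and 21.1%. Near-identical copies were found for 70 of the 469 distinct bins, which is 25.6% of the Serpina list, 14.7% and 10.5% of the Serpinb lists of chromosomes 1 and 13, and 5.44% of the others. Each of these had a match of at least 95% identity over at least 80% of their length elsewhere in the genome, so that reads there could come from another copy.

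Between 3 and 8 weeks, the called bins of the Serpina cluster in control livers were losses with 1 exception, while those of the Serpinb clusters were gains and losses. In females, 4 of 148 serpin bins passed and all 4 were lower at 8 weeks. The overall share of autosomal bins called there was 2.08%, with 0.812% higher and 1.27% lower. In males, 12 of 190 serpin bins passed, 4 higher and 8 lower, where 4.36% of autosomal bins were called, 2.36% higher and 2% lower. With the trend of change with GC content and signal subtracted, none of the 4 female calls kept an adjusted p under 0.05 (the lowest, at Serpina1c, was 0.0509), and 3 of the 12 male calls did, at Serpina1e, upstream of Serpina12 and upstream of Serpinh1. A change in the mark per cell and a change in the share of cells that carry it cannot be told apart in whole liver.

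**Figure D1:**
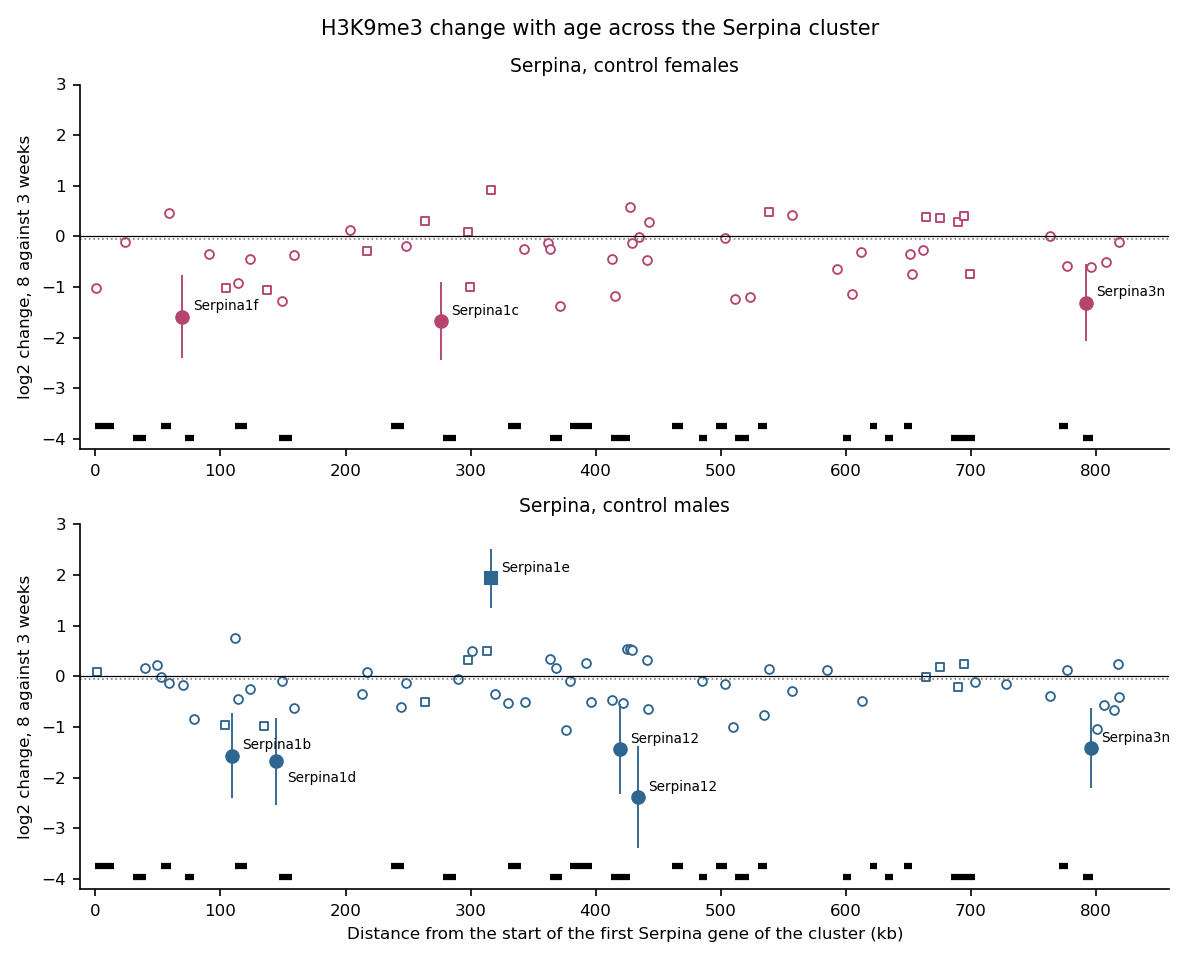
Log2 change of H3K9me3 at 8 against 3 weeks (y axis) along the Serpina cluster of chromosome 12 (x axis, distance in kb from its first gene), in control females above and control males below. Each symbol is 1 bin (square where at least 50% of bases are repeat-masked, circle otherwise), filled symbols passed an FDR under 0.05 and carry approximate 95% intervals, the dotted line is the median of all autosomal bins and black bars at the foot are genes; the 3 called bins in females are all below 0, and in males 5 are below 0 and 1, downstream of Serpina1e, is above.

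In the Serpina list as a whole, 38 of 52 bins (73.1%) were lower at 8 weeks in females, with a median log2 change of −0.32 against −0.05 over all autosomal bins. At an unadjusted p under 0.05 there were 14 lower bins and 1 higher, and over all autosomal bins 16.5% passed this cut in either direction. In males 44 of 66 bins (66.7%) were lower with a median of −0.16, again against −0.05 over all. There, 10 lower and 1 higher bins had an unadjusted p under 0.05, a cut passed by 21.7% of autosomal bins in either direction. The Serpina share at this cut was thus above the autosomal share in females and below it in males. Autosomal shares by direction are not given here, so the counts of lower bins have no background beside them. After the trend of change with GC content and signal was subtracted, the medians were −0.25 and −0.11.

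The alpha-1-antitrypsin genes Serpina1a to Serpina1f, which encode the main plasma inhibitors of neutrophil elastase in the mouse and related copies, held called changes in both directions. In females, 17 bins at the 6 genes had a median of −0.36 and ranged from −1.67 to 0.91. Near-identical copies were found for 10 of the 17, so not all of these values can be assigned to a single gene copy. The bin with the smallest p lay 1.83 kb downstream of Serpina1c, at chr12:103892697-103893093. It was 3.17-fold lower at 8 weeks (log2 change −1.67 ± 0.39, approximate SE, FDR 0.00406) at a mean of 2.61 log2 CPM. A bin 1.66 kb downstream of Serpina1f (chr12:103685887-103686387) was 2.99-fold lower (−1.58 ± 0.41, FDR 0.0136). Neither bin contained much repeat sequence, at 0.0% and 4.79% masked.

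In males, 24 bins at the same 6 genes had a median of −0.35 and ranged from −1.68 to 1.93, and 12 of the 24 had near-identical copies. Losses were called about 2 kb downstream of Serpina1d (chr12:103761075-103761575, −1.68 ± 0.44, FDR 0.00948) and of Serpina1b (chr12:103725659-103726159, −1.57 ± 0.43, FDR 0.0156). The Serpina1d bin also lies within the span of Serpina1b in the GENCODE annotation. Both of these called bins share the printed stretch with the female Serpina1c bin. The loss was thus called at the same place relative to the gene at different copies in the 2 sexes. Serpina1c had 4 bins in males, none of them at this place and none called. The female Serpina1c bin and the male Serpina1b bin each had 2 near-identical copies, all on chromosome 12, and how reads were shared among the copies was not tested.

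The largest gain of any serpin bin was also at this group. A bin 13.7 kb downstream of Serpina1e (chr12:103932753-103933253) was 3.82-fold higher at 8 weeks in males (1.93 ± 0.30, FDR 3.73e-07), with a mean of 3.37 log2 CPM, the highest signal of any Serpina bin in the male table. Repeats covered 96.8% of this bin, it held 23 CpG sites, and 76 near-identical copies were found, none on the same chromosome. In females the listed bin of the overlapping peak shared 108 bp with it and changed by 0.91 ± 0.34 (unadjusted p = 0.0067, FDR 0.138). The other 3 bins of Serpina1e in males were between −0.54 and −0.35 and none was called.

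Among the antichymotrypsin-like genes, Serpina3n, an acute-phase inhibitor, was the 1 gene with a called loss in both sexes, at different bins. In females the bin at chr12:104408683-104409135, 1.95 kb into the gene and overlapping a coding exon, was 2.47-fold lower (−1.31 ± 0.39, FDR 0.0398). In males the bin at chr12:104412541-104413041, in an intron, was 2.67-fold lower (−1.42 ± 0.40, FDR 0.0221). The female bin that overlaps the latter by 259 bp was at −0.61 ± 0.40 with an FDR of 0.547. All 4 female bins of Serpina3n and 5 of its 6 male bins were below 0. Over the whole group the medians were −0.32 for 22 bins in females and −0.21 for 21 bins in males. Serpina3b had 2 bins in females, at −1.22 and −1.20, and 1 in males that was also below 0, none of which passed (smallest FDR 0.0674).

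Serpina12 encodes vaspin, an adipokine that inhibits a kallikrein. Its upstream bin in males (chr12:104050141-104050641, 5.70 kb from the gene) had the largest loss of all serpin bins, 5.21-fold lower at 8 weeks (−2.38 ± 0.51, FDR 0.000872), from a low mean signal of 1.70 log2 CPM. A second bin of Serpina12, inside the gene and overlapping a coding exon, was 2.69-fold lower (−1.43 ± 0.45, FDR 0.0491), just inside the threshold. The remaining Serpina genes, which include Serpina6 (the corticosteroid carrier of plasma), Serpina10 (an inhibitor that acts with protein Z) and Serpina5 (protein C inhibitor), had 6 bins in females and 12 in males, none of them called, where 2.08% and 4.36% of autosomal bins were.

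**Figure D2:**
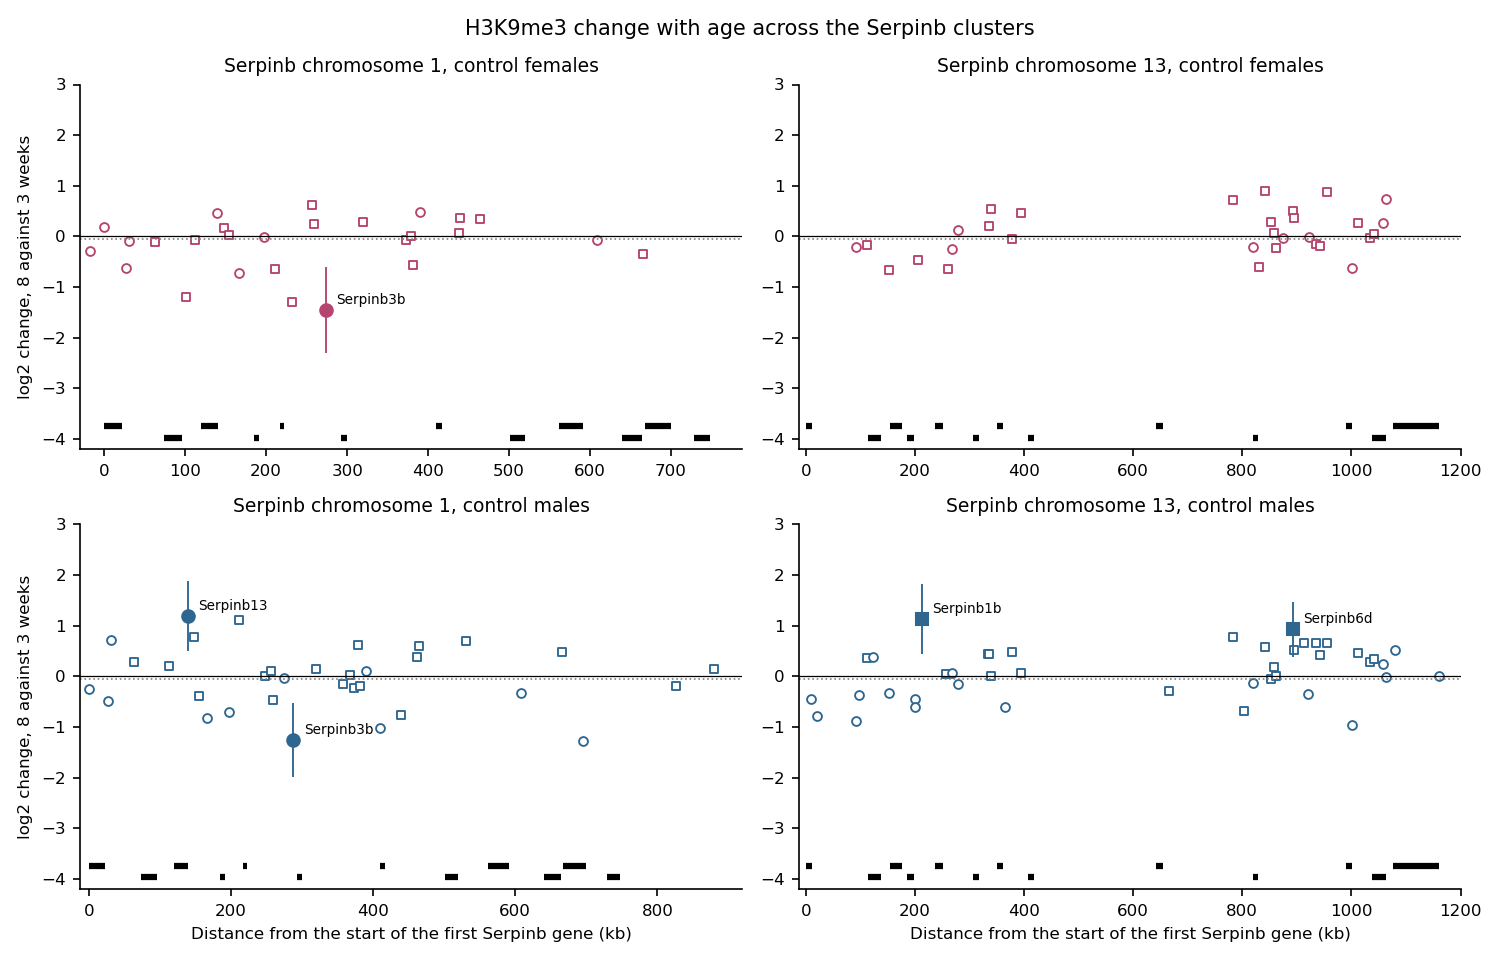
Log2 change of H3K9me3 at 8 against 3 weeks (y axis) along the Serpinb clusters of chromosome 1 and chromosome 13 (x axes, distance in kb from the first gene), in control females and males. Squares are bins with at least 50% of bases repeat-masked and circles the others, filled symbols with approximate 95% intervals passed an FDR under 0.05, the dotted line is the median of all autosomal bins and black bars are genes: there was 1 called loss in females, and 1 loss and 3 gains in males.

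The Serpinb clusters had medians near that of all bins in females (−0.06 on chromosome 1 over 27 bins and −0.02 on chromosome 13 over 31 bins) and slightly higher ones in males (0.01 over 33 bins and 0.06 over 42 bins). With the same trend subtracted, these medians became 0.00 and 0.09 in females and −0.11 and −0.06 in males. On chromosome 1 the Serpinb3 genes, mouse relatives of the human squamous cell carcinoma antigens, held a called loss in each sex, both at bins assigned to Serpinb3b. In females it lay 18.5 kb downstream (chr1:107134971-107135471, −1.45 ± 0.43, FDR 0.0414). In males it lay 5.16 kb downstream (chr1:107148382-107148799, −1.26 ± 0.37, FDR 0.0308). The male table had a bin over the female one, and it was at −0.04 with an exact-test p of 1. The female bin matched a further Serpinb3b-assigned bin of the same cluster at 98.9% identity over 457 bp.

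The called gains on both clusters were in males. Serpinb13, an inhibitor of cathepsins known from skin, gained signal at its last exon (chr1:107000390-107000788, 2.28-fold, 1.19 ± 0.35, FDR 0.03), in sequence with no repeat. The paired female bin was at 0.47 ± 0.35 (FDR 0.615). A bin assigned to Serpinb6d but 62.5 kb downstream of it (chr13:33734089-33734589) gained 1.90-fold (0.93 ± 0.27, FDR 0.0308) at a high mean signal of 3.45 log2 CPM. With the GC and signal trend subtracted, its change was 0.40 (adjusted p 0.507). The paired female bin was at 0.49 ± 0.33 (FDR 0.554). A bin 23.1 kb upstream of Serpinb1b (chr13:33055035-33055399), a relative of the neutrophil elastase inhibitor Serpinb1a, gained 2.19-fold (1.13 ± 0.35, FDR 0.0457). Repeats covered 96.2% of it, and it had 142 near-identical copies, 14 of them on the same chromosome.

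At the Serpinb6 genes, relatives of an intracellular inhibitor of cathepsin G, 4 of 22 bins in females had an unadjusted p under 0.05 (18.2%, against 16.5% of all autosomal bins) and all 4 were higher, with none called. In males 4 of 26 were higher and 2 lower at this cut (23.1%, against 21.7%), with a median of 0.32, or 0.03 with the trend subtracted. A bin assigned to Serpinb6e that lies away from it, in an intron of Vmn2r-ps94 (chr13:33797101-33797601), was at 0.87 ± 0.30 in females (exact-test p = 0.00394, FDR 0.104). The Serpinb9 genes, relatives of the granzyme B inhibitor Serpinb9, had 6 bins in females and 10 in males, with no bin at an unadjusted p under 0.05 in either.

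Of the scattered serpins, Serpinh1 (HSP47, the collagen chaperone) held both called bins, in males. The upstream bin printed above (chr7:99359720-99360220, 6.48 kb from the gene) was 2.90-fold lower at 8 weeks (−1.54 ± 0.41, FDR 0.0114), and a bin 0.476 kb downstream (chr7:99344399-99344899) was 3.07-fold lower (−1.62 ± 0.46, FDR 0.0235). In all, 8 of the 12 Serpinh1 bins in males were lower with a median of −0.76, and the 6 with an unadjusted p under 0.05 were all lower. In females 9 bins had a median of −0.12, and 1 was under 0.05 unadjusted. Over all autosomal bins 21.7% in males and 16.5% in females passed that cut, and 4.36% and 2.08% were called. The female bin that overlaps the called upstream bin by 338 bp was at −0.26 ± 0.33.

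The coagulation and complement serpins had medians of −0.14 over 18 bins in females and −0.33 over 22 bins in males. None of these bins was called, where 2.08% and 4.36% of autosomal bins were. Serpinf2 (alpha-2-antiplasmin) had 2 bins in females, at −1.26 ± 0.45 (exact-test p = 0.00494, FDR 0.117) and at 0.28, and 1 in males at −0.78 (p = 0.0471, FDR 0.323). Serpine2, protease nexin-1, had bins in both directions, from −0.94 to 1.05 in females and from −1.10 to 1.02 in males. Serpinc1 had 1 bin in females at −0.12 and 3 in males from −0.98 to 0.86, and Serping1 had 1 bin in each sex, at −0.36 and 0.28. Among the other genes, a bin assigned to Serpini2, a pancreatic serpin, lay just outside the threshold in females at 1.09 ± 0.34 (FDR 0.0596). That bin is intergenic, 45983 bp from the start of the gene, and 72.8% masked. The next female bin outside the threshold was at Serpinb3d (−1.30, FDR 0.0596). In males the nearest bins outside it were at Serpinb10 (−1.27, FDR 0.0884) and Serpinb3d (1.11, FDR 0.0923).

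Bins within 1 kb of an annotated transcript start of a serpin gene, alternative starts included, made up 8.11% of serpin bins in the female age table and 12.1% in the male one, against 14.4% and 13.0% of all autosomal bins. None of these 12 female bins (11 genes) or 23 male bins (20 genes) was called, where 1.69% and 4.31% of all autosomal bins near a start were. An unadjusted p under 0.05 was found at 4 and 3 of them (33.3% and 13.0%), against 17.4% and 27.2% of all such bins. Their values ran from −1.22 at Serpina3b to 1.05 at Serpine2 in females, the latter at an alternative start inside the gene, and from −0.96 at Serpinb6e to 0.78 at Serpine2 in males.

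In males the called gains and losses were split by the repeat content of the bins, and females had no called gain. In the female table, the 59 serpin bins with at least 50% masked bases had a median change of 0.01 with no call, and the 89 others had a median of −0.24 and held all 4 losses. In males, the 68 mostly masked bins had a median of 0.22 with 3 gains and no loss, and the 122 others a median of −0.34 with 1 gain and 8 losses. Over all autosomal bins the same split gave medians of 0.10 and −0.09 in females and 0.15 and −0.11 in males. Among mostly masked autosomal bins, 381 of 24902 were called higher and 270 lower in females, and 1511 of 31061 higher and 512 lower in males. Among the others the counts were 547 higher and 1185 lower of 89415, and 1971 higher and 2431 lower of 116299. A split of this direction was thus not particular to serpins. At these shares, the lack of a loss among 59 and 68 masked serpin bins tells little. Across serpin bins, the change had a rank correlation with the masked share of 0.23 (148 bins, females) and 0.39 (190 bins, males), where all autosomal bins gave 0.07 in both. With mean signal it was 0.38 and 0.39, where all bins gave 0.28 and 0.39. These are descriptions across bins of the same libraries, and neighbouring bins are not independent.

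**Figure D3:**
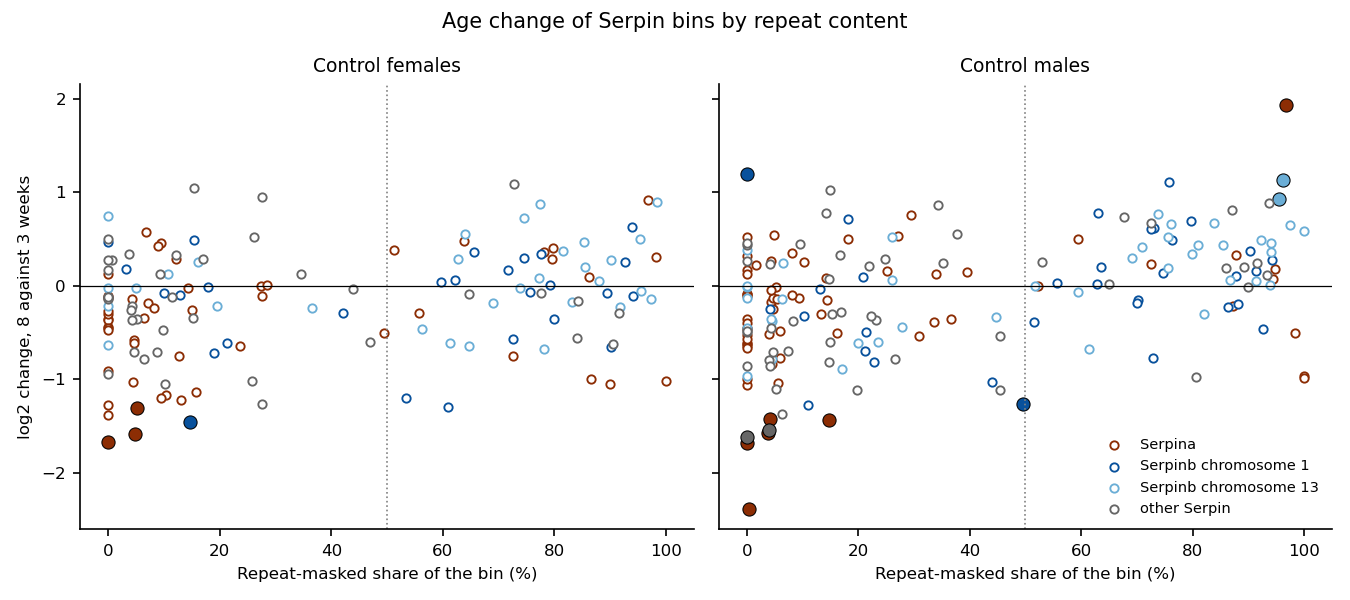
Log2 change at 8 against 3 weeks (y axis) of each serpin bin against the share of its bases that are repeat-masked (x axis, %), in control females (left) and males (right). Colours mark the gene lists, larger filled points passed an FDR under 0.05, and the dotted vertical line is at 50%: to the right of it are 3 called gains in males and no called loss.

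Most called losses were at peaks that the tables of 8-week livers no longer list. Each of the 12 serpin bins that were lower at 8 weeks lay in a peak of the MO comparison at 3 weeks of the same sex, and 2 of the 12 (16.7%) lay in a peak of the comparison at 8 weeks. All 4 gained bins lay in peaks at both ages. Over all autosomal bins called lower, 26.9% in females and 24.0% in males lay in a peak of the 8-week table, and of those called higher all did in females and 99.2% in males. The tables share the control libraries of that age, so this restates the loss by presence of a peak and is no separate evidence. The Serpina cluster had 61 bins in the 3-week and 37 in the 8-week comparison of females (7.06% and 4.73% of its length in peaks), and 72 and 32 in males (8.50% and 4.11%). Over all autosomes the covered length was 8.15% and 7.11% in females and 8.89% and 6.72% in males. In the Serpinb cluster on chromosome 1 it was 2.05% and 1.87% in females and 2.12% and 1.76% in males.

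Whether the sexes differed was examined at bins of the 2 age tables that overlap by at least 0.5 of each. These tables share no libraries. Of 84 serpin pairs, 50 (59.5%, 95% Wilson interval 48.8 to 69.4) had the same sign in both sexes, 25 lower in both and 25 higher in both, against 64.5% of 54208 autosomal pairs. The interval takes pairs as independent, which neighbouring bins are not. For Serpina the sign was the same in 12 of 22 pairs and for Serpinb in 27 of 45. The rank correlation of the changes was 0.36 over serpin pairs and 0.41 over all, and with the GC and signal trend subtracted it was 0.14 and 0.26. No serpin pair was called in both sexes, and 0.629% of all pairs were. A difference between the sexes passed an adjusted p of 0.05 at no serpin pair, and at 0% of all pairs. At an unadjusted p under 0.05 it was 4 serpin pairs (4.76%), against 6.25% of all pairs. The smallest adjusted p of a serpin pair was 0.353, at a Serpinb3d bin with −0.65 in females and 1.11 in males, a difference of −1.76 ± 0.53 with a 95% interval of −2.80 to −0.716. Of the 12 called losses 4 had a pair in the other sex, and none of them was shown to differ between the sexes. Their differences (females minus males) were −1.42 ± 0.58 at Serpinb3b (unadjusted p = 0.0147, with the median SE of males standing in for that of the male bin), 1.28 ± 0.53 upstream of Serpinh1 (unadjusted p = 0.0149), −1.41 ± 0.75 at Serpina1f and 0.81 ± 0.57 at Serpina3n, with adjusted p from 0.641 to 0.958. The other 8 losses had no such pair and were not compared. At the paired gains of males, the differences were −0.72 ± 0.50 at Serpinb13 and −0.43 ± 0.43 at Serpinb6d. Neither was shown to differ between the sexes (adjusted p of 0.951 or above).

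Few bins differed between MO and control offspring, among the serpins as over all autosomes. No autosomal bin, and so no serpin bin, had an FDR under 0.05 in any of the 4 MO comparisons. At an unadjusted p under 0.001 the counts were 0 of 174 bins in 3-week females (0.212% of autosomal bins), 1 of 209 in 3-week males (0.278%), 1 of 134 in 8-week females (0.168%) and 0 of 135 in 8-week males (0.112%). At an unadjusted p under 0.05 the serpin counts, as higher and lower, were 10 and 12, 10 and 5, 3 and 5, and 4 and 4, where 7.74%, 8.83%, 7.04% and 6.51% of autosomal bins passed in either direction. The 22 of 174 serpin bins in 3-week females were a larger share than the 7.74%, and the serpin shares of the other comparisons were below the autosomal ones.

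**Figure D4:**
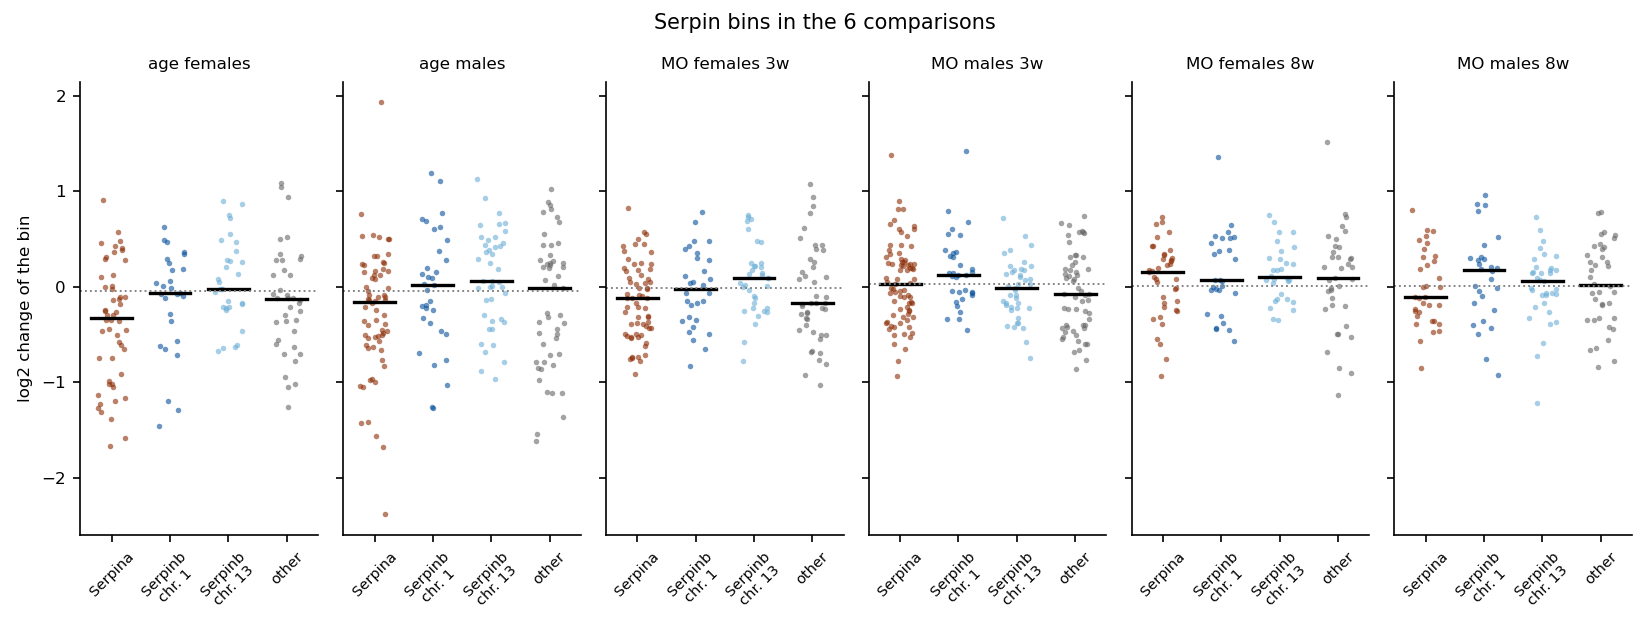
Log2 change of every serpin bin (y axis) in the 6 comparisons (panels), by gene list (x axis: Serpina, Serpinb on chromosome 1, Serpinb on chromosome 13, other serpins). Points are bins, short black bars are list medians and the dotted line is the median of all autosomal bins; list medians of the MO panels lie between −0.17 and 0.18.

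The bin called in 3-week males lay 6.39 kb downstream of Serpinb3d (chr1:107071441-107071770). It was 2.68-fold higher with MO (1.42 ± 0.35, unadjusted p = 4.49e-05, FDR 0.367). The same bin was at 1.11 ± 0.39 with age in control males (FDR 0.0923) and at −0.76 ± 0.41 with MO at 8 weeks (exact-test p = 0.0616). The age change and each MO change of a sex share control libraries, so these values are given side by side only. The overlapping bin in females was at −0.65 with age, 0.16 with MO at 3 weeks and 0.51 with MO at 8 weeks.

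Just outside the threshold in 3-week females was the intergenic bin assigned to Serpini2 that was near the threshold with age (1.07 ± 0.34, exact-test p = 0.00175, FDR 0.72). In 3-week males it was a bin over the 3′ end of Serpina3c (1.38 ± 0.43, exact-test p = 0.00146, FDR 0.666). At 8 weeks, the Serpinb3b bin that had been called lower with age in females was at 1.36 ± 0.47 with MO (exact-test p = 0.00379, FDR 0.926), and at −0.56 ± 0.38 with MO at 3 weeks. The Serpinb1b bin that was called higher with age in males was at −1.21 ± 0.40 with MO at 8 weeks (exact-test p = 0.00248, FDR 1) and at −0.15 ± 0.51 at 3 weeks. Both 8-week values are against the same control libraries as the age change, and none of them passed.

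**Figure D5:**
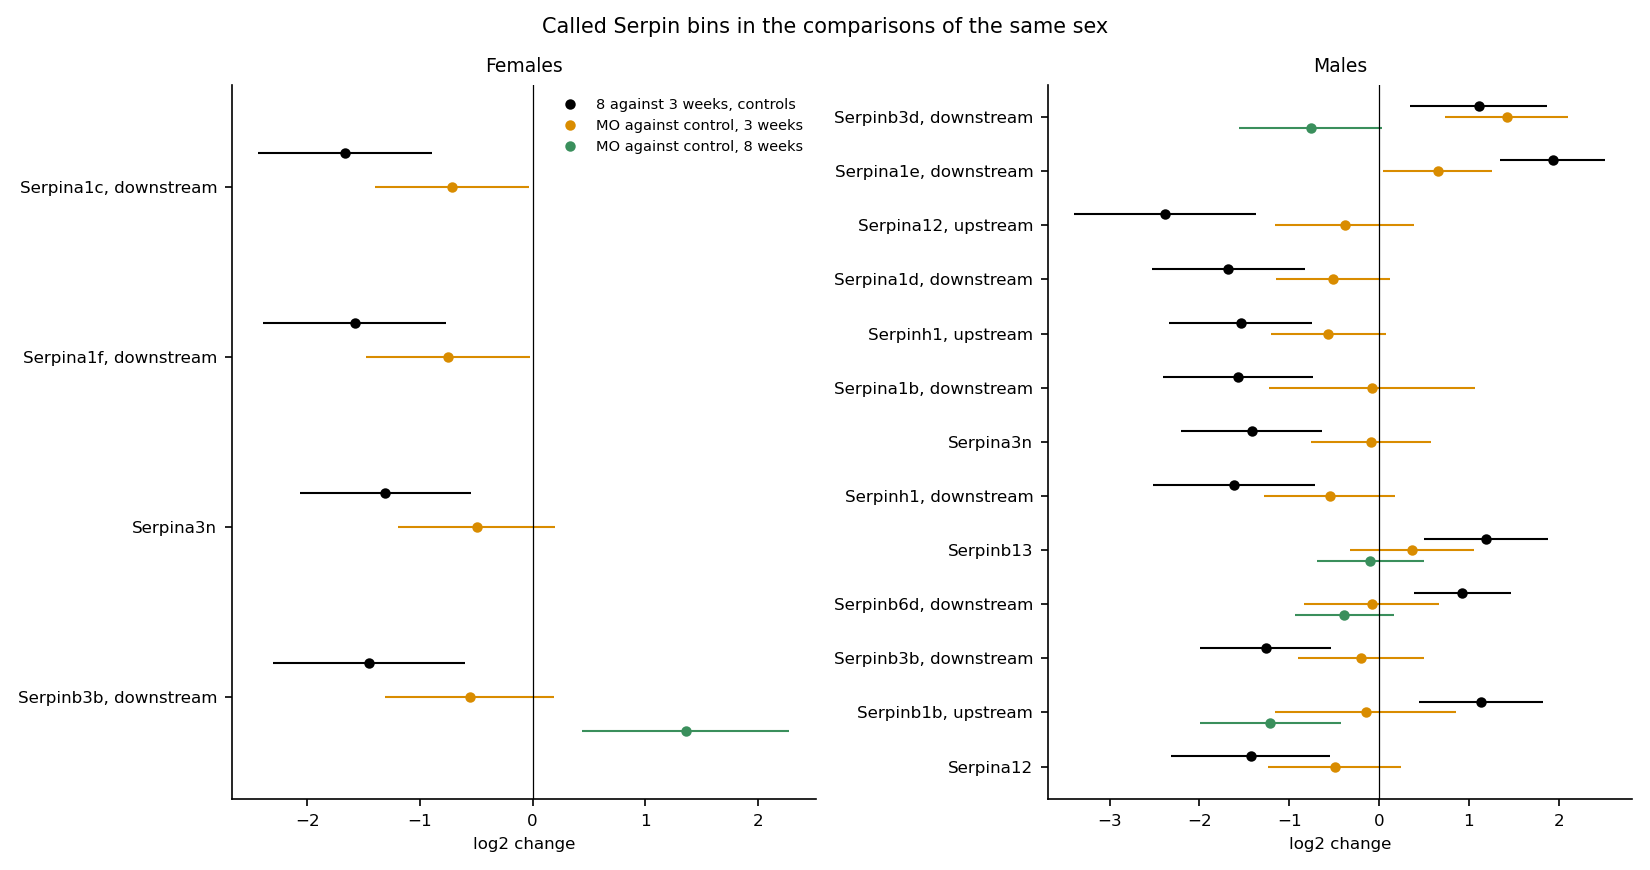
Log2 change (x axis) of each called serpin bin described in the text (rows) in the 3 comparisons of the same sex: age, MO at 3 weeks and MO at 8 weeks, in females (left) and males (right). Points are the listed bin that overlaps the called one, bars are approximate 95% intervals, and a missing point means that no overlapping bin is listed; values called with age run from −1.67 to −1.31 in females and from −2.38 to 1.93 in males, and the MO values beside them share control libraries with them.

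List medians under MO were all small. For Serpina they were −0.12 and 0.15 in females at 3 and 8 weeks and 0.03 and −0.10 in males. For the other lists they ran from −0.17, for the scattered serpins of 3-week females, to 0.18, for the Serpinb cluster of chromosome 1 in 8-week males. Of 106 female pairs of serpin bins overlapping between the MO comparisons at 3 and 8 weeks, 57 (53.8%) had the same sign, with a rank correlation of 0.10. Of 105 male pairs, 55 (52.4%) did, with a rank correlation of −0.12.

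Among the proteases that serpins inhibit, with their cofactors, none of 114 bins at 33 genes passed with age in females, where 2.08% of autosomal bins did (5 higher and 13 lower at an unadjusted p under 0.05). In males, where 4.36% of autosomal bins passed, 2 of 144 did, both lower and both upstream of the gene they are assigned to: Proz, protein Z, the cofactor of Serpina10, in an exon of another gene (−1.38 ± 0.38, FDR 0.0171), and Lrp1, a receptor that clears complexes of serpins and proteases (−1.56 ± 0.47, FDR 0.0356). The list of protease inhibitors of other families, drawn up by name pattern, also took in Cstad, which is no protease inhibitor. Without Cstad, a choice made after seeing the data, it had 2 higher and 2 lower called bins of 152 in females, and 3 higher and 1 lower of 185 in males, and with it there were 5 called bins in each sex. In females, bins assigned to Mug2, a murinoglobulin, and Kng2, a kininogen, were lower (−1.58 and −1.10), and those of Wfdc8 and the stefin Stfa3 were higher (1.31 and 0.93). In males, a bin assigned to the stefin Stfa2l1 was lower (−1.75), whereas 1 at Slpi and 2 at Stfa3 were higher (1.33, 1.08 and 1.17, the first and the last in exons of other genes). Neither list had a called bin under MO, where 0.112% to 0.278% of autosomal bins were called. At hepatocyte marker genes 0 of 30 bins passed in females and 2 of 44 in males, upstream of their genes: a lower one assigned to Apob (−1.79), in an intron of another transcript, and a higher one assigned to Cps1 (1.01). With the GC and signal trend subtracted, the bins of Proz (0.0455), Mug2 (0.0124) and Wfdc8 (0.0226) kept an adjusted p under 0.05, and those of Lrp1, Kng2, Stfa2l1, Slpi, Stfa3, Apob and Cps1 did not (0.0534 or above). The mark does not measure expression, so the cell composition of the tissue was not tested.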

How the data were processed

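H3K9me3 ChIP-seq was performed on frozen liver from 4 animals per group. The authors mapped reads to mm10/GRCm38 using BWA and used MACS2 (also named in the submitters' processing notes) for broad peaks, dropped blacklisted regions, required a peak in most libraries of a group, merged the groups within each sex, cut long peaks into bins, counted reads with featureCounts and ran edgeR's exact test. ChIPseeker assigned the nearest gene. An approximate depth common to the libraries is stated, while depth per library was not analysed here.

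The deposited fold changes and mean CPM are log2 values computed by the authors. The deposited p-value and FDR of each bin are the authors' own probabilities, unadjusted and adjusted. They are the authors' comparison columns and the only values in the files used here, so no contrast was refitted, and each peak is represented by 1 bin chosen by a rule not given in the sources used here. That step can change which part of a peak is seen. Edges of bins differ between the sexes for the same reason, as peaks were merged per sex.

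From these, the sign of the age tables (deposited as 3 relative to 8 weeks) was turned. An approximate SE was taken as the change divided by the normal quantile of its p-value, and 95% intervals as ±1.96 SE. Female and male changes at overlapping bins were compared by the difference over its SE (two-sided), with Benjamini-Hochberg adjustment over all 54208 pairs. Where a p-value of 1 gave no SE, as for the male Serpinb3b bin, the median SE of that sex over these pairs stood in for it. GC content, masked bases and near-identical copies (BLAST 2.17.0+) came from the GRCm38 reference, gene coordinates from RefSeq (GRCm38.p6) and exons from GENCODE. The GC and signal trend was the median change of bins in the same GC decile and log2 CPM decile. Scripts were tested on simulated data (Python 3.11.15, pandas 2.3.3, scipy 1.17.1). Named bins were those called, the 3 with the smallest p per list and comparison (at most 1 per gene), the genes with the highest signal and the bins beside a threshold, of which a selection is described; the bin called with MO in 8-week females is counted and not otherwise reported here. Members and lists were chosen with earlier results of these data known. The labels do not say whether animals of a group shared a litter, so p-values measure the spread between these samples.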

Additional observations from a re-analysis of the deposited data

How the results depend on the processing

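Of 133 values recomputed under other settings, 91 stayed close to the reported value and 42 moved, where close means a count within 1.5-fold, or a median or share inside the 95% interval of the reported one (over the list's bins, or Wilson). Both intervals take bins as independent and serve only as a yardstick. With age in females (4 serpin, 3 Serpina and 1 Serpinb bins) an FDR under 0.01 left 1, 1 and 0, bins with a signal above the median left 0, 0 and 0, and promoter or gene body bins 1, 1 and 0. Removing the GC and signal trend gave 1, 1 and 0, the 1 being a different Serpina1c bin (−0.99). Single-bin peaks left 2 serpin and 0 Serpinb bins, and leaving out bins with near-identical copies left 2 and 0. With age in males (12, 6 and 4) an FDR under 0.01 left 3, 3 and 0, promoter or gene body bins 4, 3 and 1, and trend removal 3, 2 and 0. Single-bin peaks left 3 serpin and 0 Serpina bins, and a signal above the median left 3 Serpina bins. The cause was not tested, beyond fewer bins entering under the subsets.

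For MO, an unadjusted p under 0.01 gave 2, 3, 2 and 3 serpin bins and under 0.05 gave 22, 15, 8 and 8 (3-week females, 3-week males, 8-week females, 8-week males). The 3-week male count fell to 0 with promoter or gene body bins only. The 8-week female count fell to 0 with a signal above the median and with single-bin peaks. Of 48 list medians, 45 stayed close and 3 moved, all for the scattered serpins with single-bin peaks: −0.42 and 0.24 with age in females and males, and 0.32 with MO in 8-week females. That interval is wide: with single-bin peaks the Serpina medians went from −0.16 to −0.39 with age in males and from −0.12 to −0.29 with MO in 3-week females, and that of Serpinb on chromosome 1 from 0.07 to 0.30 with MO in 8-week females. A signal above the median left 8 of the 12 called bins of males. Some medians near 0 changed sign within it, as did those of both Serpinb clusters in both sexes with age when the trend was removed. Pairs of the sexes overlapping by at least 1 bp had the same sign in 59.4%, and no serpin pair had identical coordinates. No paired analysis was possible because the tables hold no values per library. Leaving out replicates and another normalization were not run for the same reason. Depth per library is unknown here, and the 5.21-fold loss upstream of Serpina12 rests on a low signal.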
